A study of Mus musculus with 12 samples.

Results

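Immunoglobulin gene segments are the genes from which the heavy and light chains of antibodies are assembled. They were chosen by annotation and by count, as genes annotated as immunoglobulin constant (C), variable (V), joining (J) or diversity (D) genes with a summed count of at least 10 over the 12 mice. Of 264 such genes listed, among 57490 genes in all, 43 met the rule: 11 of 13 C genes, 32 of 218 V segments, 0 of 14 J segments and 0 of 19 D segments. Because the summed count chose them, their detection is a description and not a result. At the edge of the rule, Ighv5-15, Igkv14-111 and Igkv8-24 had 10 counts each, Igkv6-25 had 9, and Ighv1-18, Igkv1-117, Igkv3-2, Igkv4-53 and Igkv4-57-1 had 8. A further 145 genes had 0 counts in every mouse, and 76 had 1 to 9. The 43 genes held 23817 of the 24084 counts on immunoglobulin genes.

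An antibody joins heavy chains to light chains of the kappa or lambda kind. A developing B cell assembles a V, a J and, for the heavy chain, a D segment next to a constant gene, and a later switch of the heavy constant gene changes the isotype from IgM and IgD to IgG or IgA. Plasma cells, the antibody-secreting stage, carry the highest amounts of immunoglobulin mRNA, and antibody deposits in the kidney are a feature of several nephropathies.

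The study sequenced polyadenylated RNA from the kidneys of 12 male mice on the BKS background, 4 in each of 3 groups, each library from a separate mouse. The Ctrl mice were db/m heterozygotes for the Lepr db allele. The Model and YHY mice were db/db, from a strain described as carrying Dock7m and Leprdb, which lacks a working leptin receptor and becomes obese and diabetic, and they were selected for high blood glucose. The YHY mice were gavaged daily for 4 weeks with a water extract of Yiqi Huoxue Yangyin Decoction, a herbal formula, at 6.24 g/mL, and Ctrl and Model mice with purified water. The sample labels give this as a concentration and not as a dose per body weight. All mice were 13 weeks old, and the labels name the tissue as whole kidney while the series description names renal cortex. Model was compared with Ctrl for changes with diabetes, and YHY with Model for changes with treatment. YHY was also set against Ctrl, and since the comparisons share mice, their values stand side by side only.

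The libraries held 29632718 to 33276634 counts in Ctrl, 24415658 to 29784346 in Model and 25149764 to 29698342 in YHY. Mitochondrially encoded transcripts took 19.5% ± 2.12 (SD, n = 4) of counts in Ctrl, 52.2% ± 7.68 in Model and 56.8% ± 5.21 in YHY, so that the depth left for other genes differed between Ctrl and the db/db groups. Levels are given as CPM, counts per 1000000 counts, on library sizes scaled by the TMM method. A level of 3 counts, the limit that a count of 0 allows, corresponded to 0.0682 to 0.166 CPM, and such limits, like all intervals below, cover counting error only, since PCR copies are not independent molecules. Low counts were also more often even than odd, with 65.6 to 72.6% of values from 1 to 10 even in each mouse, so these limits and intervals may be too narrow even for counting error. The tissue label was checked with 8 genes of tubules and podocytes, which summed to 3084 to 5590 CPM in every mouse, led by the phosphate transporter gene Slc34a1 in all but YHY 1 and YHY 3, where Slc12a1 was higher. Lepr, the gene mutated in db/db mice, had counts in all 12 mice, from 2.78 CPM in Model 3 to 16.6 in YHY 1, and the mutation need not alter its counts. In group means that the authors deposited, Ctrl 2, Model 1 and YHY 4 were not included, but all 12 mice are used here.

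The summed level of the 43 genes was 50.3, 66.8, 41.2 and 20.2 CPM in Ctrl 1 to 4, 10.6, 11.5, 18.3 and 25.8 in Model 1 to 4, and 272, 40.6, 270 and 11.5 in YHY 1 to 4. Every Model mouse except Model 4 lay below every Ctrl mouse, and the YHY mice were spread widely, with YHY 1 and YHY 3 above all others and YHY 4 within the range of Model. The means were 44.6 ± 19.4 CPM in Ctrl, 16.6 ± 7.07 in Model and 149 ± 142 (SD, n = 4) in YHY, and no test was made on this sum. YHY 1 held 45.8% and YHY 3 45.4% of the summed level of the YHY group, YHY 2 held 6.83% and YHY 4 held 1.94%. In these bulk samples, fewer antibody-producing cells and less immunoglobulin RNA per cell cannot be told apart. The number of the 43 genes detected ran from 20 to 27 in Ctrl, from 7 to 15 in Model and from 8 to 30 in YHY, where YHY 1 had 30 and YHY 4 had 8.

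**Figure D1:**
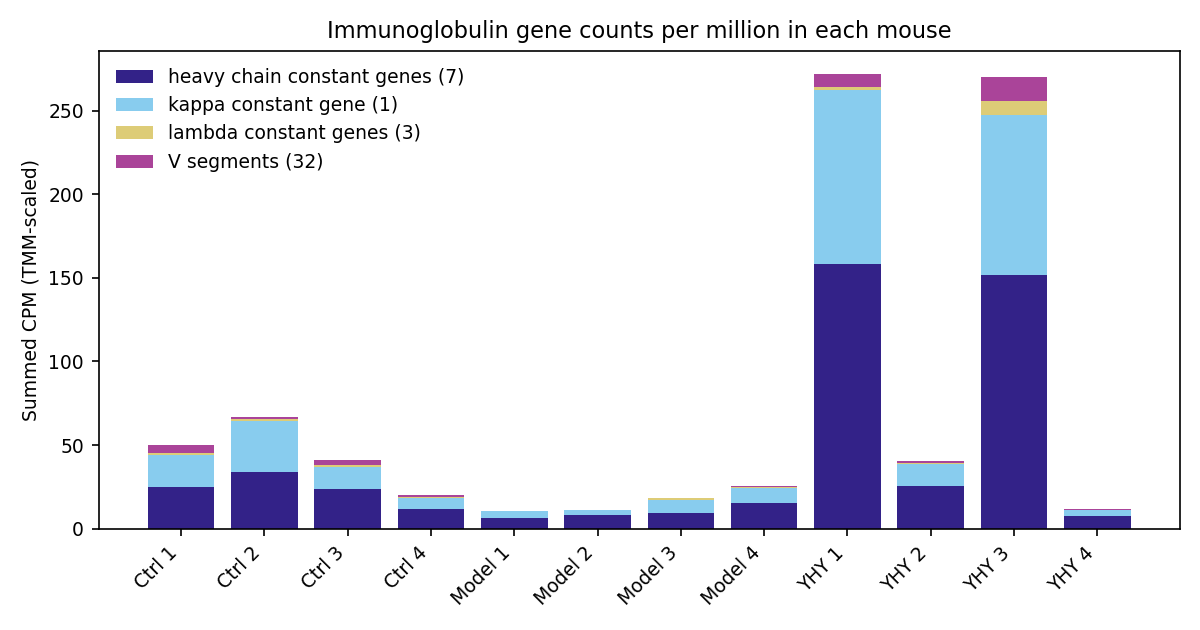
Summed CPM (linear axis) of the 43 immunoglobulin genes in each of the 12 mice, stacked by heavy constant genes, the kappa constant gene, lambda constant genes and V segments. YHY 1 and YHY 3 stand at 272 and 270 CPM, and no other mouse is above 66.8.

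Most counts fell on constant genes. The 7 heavy constant genes held 13460 counts, or 56.5% of the counts of the 43 genes, the kappa constant gene 8791 (36.9%) and the 3 lambda constant genes 505 (2.12%). The 25 kappa V segments held 792 counts (3.33%), the 5 heavy V segments 121 (0.508%) and the 2 lambda V segments 148 (0.621%). Constant genes therefore set the sum, and V segments were measured at low depth.

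Only 8 of the 43 genes, all constant genes, passed edgeR's filter on low counts and were tested among 17431 genes, so counts of calls describe these 8 and not the others. At an adjusted p under 0.05 in edgeR's quasi-likelihood test, 0 of the 8 were higher and 0 were lower in Model than in Ctrl, against 19.6% higher and 18.5% lower of all genes tested. DESeq2, which gave a p-value for 41 of the 43, also called 0 and 0, against 12.7% and 11.5% of the 30071 genes with a p-value. Its own filter can leave genes of low counts without an adjusted p, so not all of the 41 need have been open to a call. By the limits of the study, a fold over 1.2 and an unadjusted p under 0.05, 0 of the 8 tested by edgeR were higher and 2 were lower (Igha and Igkc), against 24.5% and 22.4% of all genes. An unadjusted p under 0.05 alone gave the same 0 and 2. In YHY against Model, 5 of the 8 were higher (Igkc, Igha, Ighg1, Ighg2b and Ighg2c) and 0 lower, against 5.63% and 7.62% of all genes, and at the limits of the study 6 were higher, Iglc1 being added, and 0 lower, against 13.9% and 14.7%. With only the Ctrl and Model mice Ighg1 failed the filter, so it was tested here through its high YHY values. Its calls as higher in YHY, here and against Ctrl, are a description. DESeq2 called 6 of its 41 higher, adding the lambda segment Iglv1, and 0 lower, against 4.7% and 5.54% of all genes. In YHY against Ctrl, 3 were higher (Ighg1, Ighg2b and Ighg2c) and 0 lower, against 26.1% and 24.2% of all genes. The limits of the study gave 4 higher, Igkc being added, and 0 lower, against 29.4% and 26.6%, and DESeq2 called 3 of 41 higher (Ighg1, Ighg2b and Iglv1) and 0 lower, against 16.8% and 14.6%. None of the 8 had an unadjusted p under 0.05 in the lower direction in YHY against Model or in YHY against Ctrl. Leaving out single mice, with the filter run again, moved the last count of 3 to between 1 of 8 tested, without YHY 1, and 7 of 10, without YHY 4, where Igha, Igkc, Iglc1 and Iglv1 were added. Iglv1 failed the filter in the main fit and entered this fit through YHY 1 to 3 (42, 11 and 54 counts), so its call is a description. Of all genes 24.5% and 25.3% were higher in these fits.

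The scaling bears on the comparisons with Ctrl. With library size alone in place of TMM, the median log2 fold change of all genes tested moved from 0.04 to -0.39 in Model against Ctrl and from 0.10 to -0.33 in YHY against Ctrl. The genes called then split into 1547 higher and 5670 lower against 3412 and 3219 in Model against Ctrl, and into 2365 and 5979 against 4547 and 4215 in YHY against Ctrl. Upper-quartile scaling gave medians of 0.14 and 0.22. In YHY against Model the median stayed between 0.01 and 0.04 with these scalings and DESeq2, but with library size alone 491 genes were called higher and 687 lower (2.82% and 3.94%) against 982 and 1329. The 5 immunoglobulin genes called higher in that comparison were still called.

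Igkc, the constant gene of the kappa light chain (ENSMUSG00000076609, chr6:70703419-70703950, GRCm39), stood at 18.6, 30.6, 13.4 and 6.55 CPM in Ctrl 1 to 4, 3.70, 3.28, 7.26 and 9.14 in Model 1 to 4, and 104, 13.5, 95.3 and 3.95 in YHY 1 to 4. Model 3 and Model 4 overlapped with Ctrl 4, and YHY 4 lay among the Model mice while the other YHY mice lay above them. Igkc had a log2 fold change of 3.22 (SE 0.77) in YHY against Model (edgeR adjusted p = 0.0136, exact permutation p = 0.0857), and 3 of 4 YHY mice were above every Model mouse. This call remained when any 1 of the 12 mice was left out, with log2 fold changes from 2.69 to 3.61. In Model against Ctrl the log2 fold change was -1.56 (SE 0.74, edgeR adjusted p = 0.105, exact p = 0.0857), and in YHY against Ctrl it was 1.65 (SE 0.71, edgeR adjusted p = 0.0645, exact p = 0.371). Model against Ctrl passed without YHY 4 (-1.57, edgeR adjusted p = 0.0315), and YHY against Ctrl passed without Ctrl 2 (2.07, 0.044), YHY 2 (1.97, 0.0321) or YHY 4 (2.04, 0.00629). Igkc also passed in Model against Ctrl with library size alone (-1.94, edgeR adjusted p = 0.0416), no filter (-1.59, 0.00306) or only the 8 mice compared (-1.58, 0.00706), but not with the 9 mice of the authors' means (-1.02, 0.206). For YHY against Ctrl it passed with upper-quartile scaling (1.81, edgeR adjusted p = 0.0485), no filter (1.62, 0.00116) or those 9 mice (2.45, 0.00511), but not with only the 8 mice (1.64, 0.113). With 4 mice against 4, the smallest two-sided exact p is 0.0286, from 2 of 70 arrangements.

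Iglc1, a lambda constant gene (ENSMUSG00000105906, chr16:18880368-18880821), stood at 0.984, 0.780, 0.196 and 0.273 CPM in Ctrl 1 to 4, 0.129, 0, 0.776 and 0.384 in Model 1 to 4, and 1.18, 0.442, 8.29 and 0 in YHY 1 to 4. YHY 3 was far above the other mice and YHY 4 had 0 counts, so the groups overlapped. The log2 fold change in YHY against Model was 2.95 (SE 1.2, edgeR adjusted p = 0.114, exact p = 0.286), and without YHY 4 it was 3.37 and passed (edgeR adjusted p = 0.0321), and without YHY 3 it was 0.76 (edgeR adjusted p = 0.73). Against Ctrl, the YHY value was 2.16 (edgeR adjusted p = 0.118), 2.57 without YHY 4 (edgeR adjusted p = 0.0304) and -0.04 without YHY 3. The lambda constant genes Iglc2 and Iglc3 share sequence, so reads may be split between them. Iglc2 had 5, 8, 37 and 8 counts in Ctrl 1 to 4, 0, 4, 10 and 1 in Model and 21, 2, 5 and 0 in YHY, and Iglc3 had 6, 2, 0 and 7 in Ctrl, 2, 0, 3 and 6 in Model and 0 in each YHY mouse.

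Kappa made up 93.5% ± 2.22 of the light chain constant counts in Ctrl, 91.7% ± 5.11 in Model and 96.5% ± 3.51 (SD, n = 4) in YHY. The lowest share was 84.1% in Model 3 (95% Wilson interval 78.2 to 88.6%) and the highest 100% in YHY 4 (96.4 to 100%), where 102 kappa and 0 lambda constant counts were read. The 3 groups overlapped in this share. Per length of the gene models in the annotation columns, Igkc made up 83.2 to 100% of the light constant level. On the same scale the summed heavy constant level was 0.235 to 0.631 of the summed light constant level, with the lowest ratio in Ctrl 2 and the highest in Model 2.

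**Figure D2:**
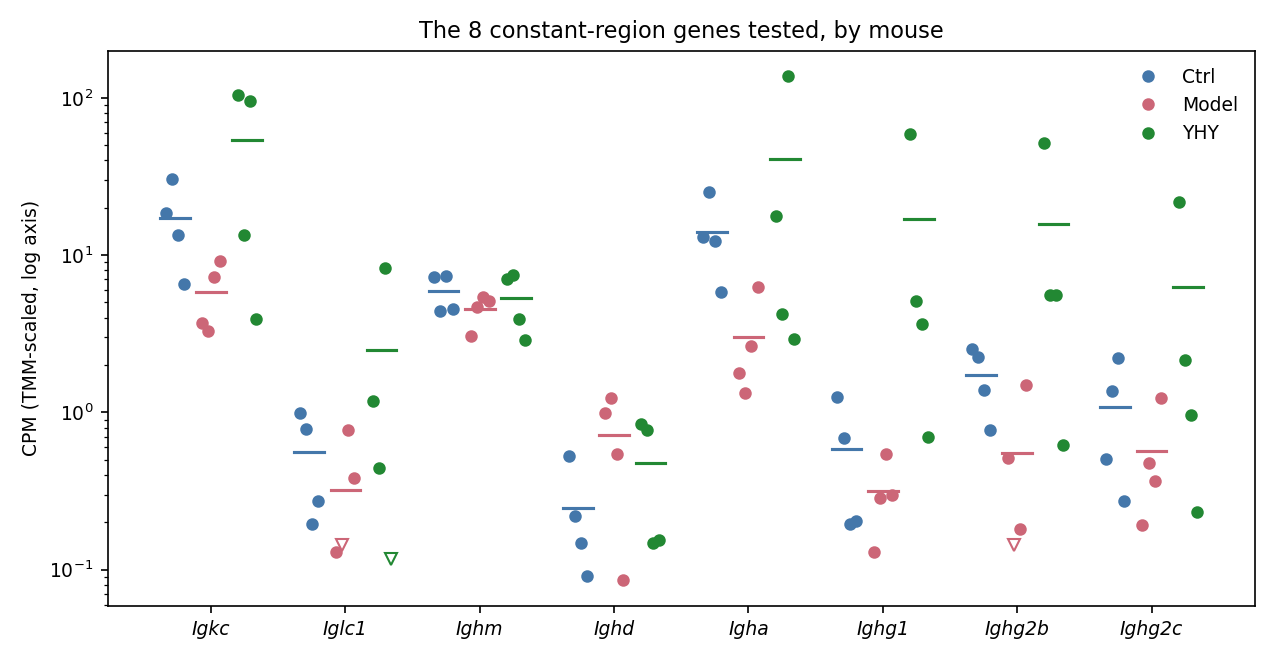
CPM (log axis) of the 8 constant-region genes that passed the filter, 1 point for each mouse and a bar for each group mean. Open triangles mark mice with 0 counts at their limit of 3 counts. In Ighg1 all 4 YHY mice are above all 4 Model mice, and for Ighm the groups overlap.

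Ighm, the constant gene of IgM, the isotype of naive B cells and of first antibody responses (ENSMUSG00000076617, chr12:113382178-113386350), stood at 7.25, 4.43, 7.37 and 4.57 CPM in Ctrl 1 to 4, 3.06, 4.66, 5.39 and 5.13 in Model 1 to 4, and 7.01, 7.51, 3.90 and 2.86 in YHY 1 to 4. The 3 groups overlapped throughout, and YHY 1 and YHY 3 did not stand apart as they did for Igkc. The log2 fold changes were -0.38 (SE 0.32) in Model against Ctrl, 0.22 (SE 0.32) in YHY against Model and -0.15 (SE 0.31) in YHY against Ctrl, with edgeR adjusted p of 0.369, 0.701 and 0.711. With library size alone Ighm was called lower in Model against Ctrl (-0.83, edgeR adjusted p = 0.0451). Ighd, the constant gene of IgD, which is made beside IgM by naive B cells (ENSMUSG00000104213, chr12:113370224-113379944), stood at 0.528, 0.218, 0.147 and 0.0910 CPM in Ctrl 1 to 4, 0.997, 1.24, 0.548 and 0.0854 in Model 1 to 4, and 0.839, 0.773, 0.149 and 0.155 in YHY 1 to 4. Model 1, 2 and 3 were above all Ctrl mice and Model 4 was below them. Its log2 fold change was 1.53 (SE 0.84) in Model against Ctrl (edgeR adjusted p = 0.161, exact p = 0.200), opposite in sign to those of the other 7 tested genes, -0.60 in YHY against Model (edgeR adjusted p = 0.689) and 0.93 in YHY against Ctrl (edgeR adjusted p = 0.375).

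Igha, the constant gene of IgA, the isotype of mucosal surfaces (ENSMUSG00000095079, chr12:113218450-113223856), stood at 13.1, 25.0, 12.3 and 5.85 CPM in Ctrl 1 to 4, 1.77, 1.33, 2.65 and 6.28 in Model 1 to 4, and 17.7, 4.2, 138 and 2.94 in YHY 1 to 4. Model 1 to 3 lay below every Ctrl mouse and Model 4 above Ctrl 4, and YHY 3 was the highest of the 12 mice. The log2 fold change was -2.22 (SE 0.94) in Model against Ctrl (edgeR adjusted p = 0.0716, exact p = 0.0571), 3.76 (SE 0.98) in YHY against Model (edgeR adjusted p = 0.0199, exact p = 0.171) and 1.54 (SE 0.87) in YHY against Ctrl (edgeR adjusted p = 0.153, exact p = 0.800). The rise in YHY against Model rested on YHY 3, without which the log2 fold change was 1.47 (edgeR adjusted p = 0.141) and that in YHY against Ctrl was -0.76. The call in YHY against Model was also lost without Model 1, Model 2 or Model 3 (3.59, 3.52 and 3.71, edgeR adjusted p = 0.0646, 0.0564 and 0.0655), and without Model 4 the value was 4.41. Without YHY 4, YHY against Ctrl passed (1.93, edgeR adjusted p = 0.0480). Model against Ctrl passed without YHY 2, YHY 3 or YHY 4, with log2 fold changes of -2.23, -2.23 and -2.22 and edgeR adjusted p of 0.0475, 0.00859 and 0.0346. It also passed with library size alone (-2.58, edgeR adjusted p = 0.03175), no filter (-2.25, 0.0007065) or only the 8 mice compared (-2.24, 0.00182). With the 9 mice of the authors' means it did not pass (-1.64, edgeR adjusted p = 0.181).

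The IgG constant genes encode the switched isotypes that dominate in serum, and they are close copies of each other. The first coding exon, which encodes the CH1 domain, is shown for the 3 IgG genes tested to show how far reads can be told apart. Each sequence is 291 bases, read 5′ to 3′ in the sense of the gene from the GENCODE vM21 transcripts (GRCm38), with capitals at the 51 positions where the 3 genes are not all alike.
Ighg1: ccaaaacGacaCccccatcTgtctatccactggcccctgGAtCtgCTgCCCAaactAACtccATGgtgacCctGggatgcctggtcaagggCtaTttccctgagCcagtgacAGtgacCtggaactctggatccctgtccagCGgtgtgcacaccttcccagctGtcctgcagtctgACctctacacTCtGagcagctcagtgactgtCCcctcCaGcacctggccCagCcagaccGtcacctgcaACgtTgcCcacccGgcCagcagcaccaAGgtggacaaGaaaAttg
Ighg2b: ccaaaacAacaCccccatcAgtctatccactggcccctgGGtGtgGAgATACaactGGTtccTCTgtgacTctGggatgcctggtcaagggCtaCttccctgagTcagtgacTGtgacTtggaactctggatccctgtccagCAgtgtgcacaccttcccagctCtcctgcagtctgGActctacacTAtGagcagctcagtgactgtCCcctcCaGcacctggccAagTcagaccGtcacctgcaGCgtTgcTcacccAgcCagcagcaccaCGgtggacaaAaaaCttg
Ighg2c: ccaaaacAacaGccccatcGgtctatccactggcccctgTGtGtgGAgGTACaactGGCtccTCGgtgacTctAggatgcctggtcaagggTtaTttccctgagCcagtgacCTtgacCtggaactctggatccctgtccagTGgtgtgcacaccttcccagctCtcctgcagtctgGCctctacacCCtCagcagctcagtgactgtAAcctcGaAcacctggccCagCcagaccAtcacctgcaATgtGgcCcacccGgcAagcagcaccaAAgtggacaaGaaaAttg
Ighg1 and Ighg2b differed at 34 of the 291 bases (88.3% identical), Ighg1 and Ighg2c at 35 (88%) and Ighg2b and Ighg2c at 36 (87.6%). Over the whole coding sequence, 0.9% of the 50-base windows of Ighg1, 9.1% of those of Ighg2b and 5.8% of those of Ighg2c also occurred in another immunoglobulin gene, so a small part of their reads could have been placed on another IgG gene.

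Ighg1, the constant gene of IgG1 (ENSMUSG00000076614, chr12:113288860-113294143), stood at 1.25, 0.686, 0.196 and 0.205 CPM in Ctrl 1 to 4, 0.129, 0.286, 0.548 and 0.299 in Model 1 to 4, and 58.7, 5.08, 3.64 and 0.697 in YHY 1 to 4. All 4 YHY mice were above all 4 Model mice, YHY 4 by the smallest margin, and YHY 4 was below Ctrl 1. The log2 fold change in YHY against Model was 5.79 (SE 1.17, edgeR adjusted p = 0.00541, exact p = 0.0286, the smallest possible). Without YHY 1 it was 3.32 and still passed (edgeR adjusted p = 0.0147), and the call remained without any other mouse. Against Ctrl, the YHY value was 4.87 (SE 1.05, edgeR adjusted p = 0.00118, exact p = 0.0571), 2.41 without YHY 1 (edgeR adjusted p = 0.0117) and 5.57 without Ctrl 1 (edgeR adjusted p = 0.00212). The Model against Ctrl value was -0.92 (SE 1.21), with an edgeR adjusted p of 0.576. Since Ighg1 passed the filter through the YHY mice, its calls as higher in YHY are a description.

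Ighg2b, the constant gene of IgG2b (ENSMUSG00000076613, chr12:113266585-113271553), stood at 2.54, 2.25, 1.39 and 0.773 CPM in Ctrl 1 to 4, 0.515, 0, 0.183 and 1.50 in Model 1 to 4, and 51.5, 5.58, 5.54 and 0.619 in YHY 1 to 4. YHY 1 to 3 were above every Model and Ctrl mouse, and YHY 4 was below every Ctrl mouse. The log2 fold change was 4.82 (SE 1.09) in YHY against Model (edgeR adjusted p = 0.0103, exact p = 0.0571), 2.80 without YHY 1 (edgeR adjusted p = 0.0464) and 5.92 without Model 4 (edgeR adjusted p = 0.0134). Against Ctrl, the YHY value was 3.19 (SE 0.96, edgeR adjusted p = 0.0115, exact p = 0.143), and without YHY 1 it was 1.16 and the call was lost (edgeR adjusted p = 0.241). The Model against Ctrl value was -1.63 (SE 1.05), with an edgeR adjusted p of 0.236.

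Ighg2c, the constant gene of IgG2c (ENSMUSG00000076612, chr12:113248945-113252552), stood at 0.504, 1.37, 2.2 and 0.273 CPM in Ctrl 1 to 4, 0.193, 0.476, 0.365 and 1.24 in Model 1 to 4, and 21.6, 2.15, 0.967 and 0.232 in YHY 1 to 4. YHY 1 was the only mouse above 2.2 CPM, and YHY 4 lay among the lowest. The log2 fold change was 3.47 (SE 1.09) in YHY against Model (edgeR adjusted p = 0.0452, exact p = 0.229) and 2.53 (SE 1.01) in YHY against Ctrl (edgeR adjusted p = 0.0462, exact p = 0.543). Both values rested on YHY 1, without which they were 0.96 and 0.02 (edgeR adjusted p = 0.507 and 0.988). The call in YHY against Model was also lost without Ctrl 1, 2 or 3 (edgeR adjusted p = 0.0542, 0.0550 and 0.0510, log2 fold changes 3.49, 3.47 and 3.49). It was lost without Model 1, 2, 3 or 4 as well (edgeR adjusted p = 0.122, 0.0977, 0.122 and 0.0532, log2 fold changes 3.19, 3.40, 3.31 and 4.2). That in YHY against Ctrl was lost without Ctrl 1, 2 or 4 (edgeR adjusted p = 0.117, 0.0739 and 0.113, log2 fold changes 2.26, 2.65 and 2.17) and without Model 1, 2 or 3 (0.0563, 0.0582 and 0.0574, log2 fold changes 2.5, 2.52 and 2.52), and without Ctrl 3 it was 3.11 (0.0407). The YHY against Ctrl call was also lost with library size alone (2.27, edgeR adjusted p = 0.063). With only the 8 mice compared, YHY against Model (3.54, edgeR adjusted p = 0.066) and YHY against Ctrl (2.51, 0.0822) were both lost. Ighg3, the constant gene of IgG3 (ENSMUSG00000076615, chr12:113319844-113324852), was not tested, with 2, 2, 0 and 7 counts in Ctrl 1 to 4, 0, 0, 0 and 14 in Model and 22, 4, 0 and 0 in YHY.

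As shares of the heavy constant counts of each mouse, Igha, the IgG genes together and Ighm ranged most widely among the YHY mice, and Ighd among the Model mice. Igha took 52.0, 73.5, 52.0 and 49.0% in Ctrl 1 to 4, 26.6, 16.7, 27.4 and 41.5% in Model 1 to 4, and 11.2, 16.5, 90.6 and 39.2% in YHY 1 to 4. The 4 IgG genes together took 17.2, 12.8, 16.1 and 11.8% in Ctrl, 12.6, 9.52, 11.3 and 24% in Model, and 83.8, 51.1, 6.69 and 20.6% in YHY. Igha was the leading isotype in each Ctrl mouse, and YHY 1 and YHY 3, which had nearly the same summed level, differed in isotype, with IgG at 83.8% in YHY 1 (95% Wilson interval 82.7 to 84.9%) and Igha at 90.6% in YHY 3 (89.7 to 91.5%). Ighm took 28.7, 13.0, 31.3 and 38.4% in Ctrl, 45.9, 58.3, 55.7 and 33.9% in Model, and 4.43, 29.4, 2.57 and 38.1% in YHY, and led in Model 1, 2 and 3. Ighd took 15.0, 15.5, 5.66 and 0.565% in Model 1 to 4 and at most 3.03% in any Ctrl or YHY mouse. These are shares of counts, which favour long genes. Per length of the gene models, Igha made up 89.0% and the IgG genes 7.26% in YHY 3, the IgG genes 84.4% in YHY 1, and Ighm 60.4% in Model 2, so the leading isotype of these 3 mice was the same on both scales. In the mice Ctrl 4, Model 4 and YHY 4 the lead turned, since Igha led in counts and Ighm led per length, with 45.7% against 41.3% in Ctrl 4, 39.0% against 33.8% in Model 4 and 45% against 32.6% in YHY 4. Shares move against each other by construction, and no test was made on them.

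**Figure D3:**
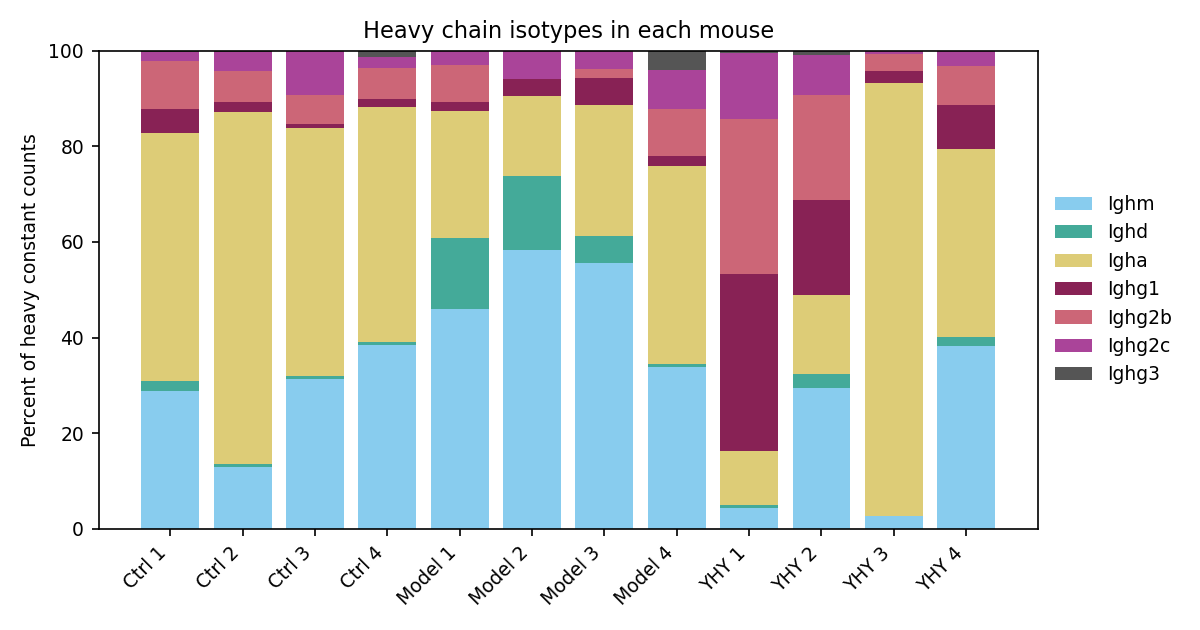
Percent of heavy constant counts (linear axis) taken by each of the 7 heavy constant genes in each mouse. IgG genes together take 83.8% in YHY 1 and Igha 90.6% in YHY 3. Ighm is the largest single gene in Model 1, 2 and 3 and in YHY 2, where the IgG genes together take 51.1%.

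V segments form the antigen-binding part of each chain, and a B cell clone generally uses a single rearranged V segment for each chain, so V counts show which segments the RNA of a mouse holds. The last coding exon is shown for the heavy V segment and the 2 kappa V segments with the most counts, on which the differences between mice below turn. It is taken from the GENCODE vM21 transcripts (GRCm38) and read 5′ to 3′, and capitals mark the bases after the motif TATTACTGT, at the end of the segment where the joining takes place. The motif was found by search on the coding strand in 15 of the 32 V segments.
Igkv12-98: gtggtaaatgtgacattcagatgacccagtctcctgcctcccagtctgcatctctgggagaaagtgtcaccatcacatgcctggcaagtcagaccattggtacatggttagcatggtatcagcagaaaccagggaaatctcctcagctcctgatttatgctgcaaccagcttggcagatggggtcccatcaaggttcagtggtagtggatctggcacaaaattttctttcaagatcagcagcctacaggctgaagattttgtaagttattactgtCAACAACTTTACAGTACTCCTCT
Ighv3-6: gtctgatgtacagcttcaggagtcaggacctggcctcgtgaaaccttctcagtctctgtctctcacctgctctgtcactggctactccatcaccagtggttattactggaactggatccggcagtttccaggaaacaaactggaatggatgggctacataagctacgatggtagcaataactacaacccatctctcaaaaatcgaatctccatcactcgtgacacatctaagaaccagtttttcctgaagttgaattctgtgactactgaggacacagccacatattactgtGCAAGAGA
Igkv8-27: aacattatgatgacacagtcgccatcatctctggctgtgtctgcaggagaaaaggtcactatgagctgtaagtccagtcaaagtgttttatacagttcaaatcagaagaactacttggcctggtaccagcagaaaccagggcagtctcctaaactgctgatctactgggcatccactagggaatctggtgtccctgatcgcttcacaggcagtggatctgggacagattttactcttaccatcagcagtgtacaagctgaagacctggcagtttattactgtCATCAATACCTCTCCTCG
In the deposited annotation (GRCm39) these genes lie at chr6:68547747-68548219, chr12:114251772-114252202 and chr6:70148793-70149254. Of the 50-base windows of their coding sequence, 0% in Igkv12-98, 3.3% in Ighv3-6 and 8.4% in Igkv8-27 also occurred in another immunoglobulin gene.

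The 32 V segments together had 217, 34, 128 and 48 counts in Ctrl 1 to 4, 3, 0, 0 and 21 in Model 1 to 4, and 205, 19, 384 and 2 in YHY 1 to 4. Their share of the counts of the 43 genes was 10.4, 1.59, 7.60 and 5.41% in Ctrl, 0.906, 0, 0 and 3.47% in Model, and 2.87, 2.59, 5.29 and 0.671% in YHY. The 0 of 241 counts in Model 2 allows a share of up to 1.24% and the 0 of 401 in Model 3 up to 0.748%. Of the 32, 28 had 0 counts in every Model mouse, 27 were detected in Ctrl and 25 in YHY. These segments were chosen by their counts, so low detection in Model may follow in part from the choice. Over all 218 listed V segments, with no limit on counts, the V counts were 274, 62, 181 and 81 in Ctrl, 17, 0, 0 and 36 in Model and 239, 29, 394 and 6 in YHY. On this wider set 84 segments were detected in Ctrl, 14 in Model and 44 in YHY, and YHY 4 had fewer V counts than Model 1 and Model 4.

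Single segments dominated in some mice. Igkv12-98, a kappa V segment (ENSMUSG00000076526), had 240 counts in YHY 3, 8.92 CPM, and 0 in each of the other 11 mice. It made up 94.1% of the 255 kappa V counts of YHY 3 (95% Wilson interval 90.5 to 96.4%). Ighv3-6, a heavy chain V segment (ENSMUSG00000076672), had 55 of the 75 heavy V counts of YHY 3 (73.3%, 62.4 to 82.0%), 5 counts in YHY 1, 2 in Ctrl 2 and 0 in the other mice. Igkv8-27, a kappa V segment (ENSMUSG00000076580), had 102 of the 192 kappa V counts of Ctrl 1 (53.1%, 46.1 to 60.1%), and 1, 3 and 3 counts in Ctrl 3, Ctrl 4 and YHY 1. YHY 1 showed another pattern, with 18 kappa segments detected and the leading one, Igkv1-135, at 26 of 158 counts (16.5%, 11.5 to 23.0%). YHY 3, with more kappa V counts, had 6 kappa segments.

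To compare mice at the same depth, the number of V segments expected among 20 V counts was computed for each mouse with at least 20. On the 32 segments it was 7.89, 9.56, 10.4 and 7.94 in Ctrl 1 to 4, 3.95 in Model 4, 10.6 in YHY 1 and 4.48 in YHY 3. The count rule drops rare segments. Over all 218 listed V segments, a set chosen after seeing the data, it was 10.7, 13.9, 13.8 and 13.2 in Ctrl, 7.50 in Model 4 and 12.3, 6.50 and 4.92 in YHY 1, 2 and 3, and the other mice had under 20 V counts. On both sets Model 4 and YHY 3 lay below every Ctrl mouse. Model 4 rests on 21 V counts in the first set and 36 in the second, against 384 and 394 in YHY 3, so its value is the less certain. The leading segments also differed between mice. Among heavy V segments, Ighv1-64 had 16 of 18 counts in Ctrl 1 and 6 of 6 in Ctrl 4, Ighv10-1 had 13 of 14 in Ctrl 3, and Ighv5-17 and Ighv5-15 had 10 counts each in YHY 3. Among kappa V segments, Igkv13-85 led in Ctrl 3 with 20 of 104 counts, Igkv1-110 in Ctrl 2 with 5 of 25, Igkv15-103 in Ctrl 4 with 10 of 27, Igkv8-21 in Model 4 with 12 of 20, Igkv6-23 in YHY 2 with 5 of 8 and Igkv3-7 in YHY 4 with 2 of 2. Igkv10-96 had 21 counts in Ctrl 1, 6 in Ctrl 3, 1 in Model 1, 2 in Model 4 and 4 in YHY 1. The lambda segment Iglv1 was the most widely detected V segment, in 9 of the 12 mice, with 7, 6, 6 and 6 counts in Ctrl, 2, 0, 0 and 1 in Model and 42, 11, 54 and 0 in YHY, and Iglv2 was read only in Ctrl 3 and Ctrl 4, with 4 and 9 counts. Of the 32 segments, 6 were detected in a single mouse and 9 had over 90% of their counts in a single mouse.

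**Figure D4:**
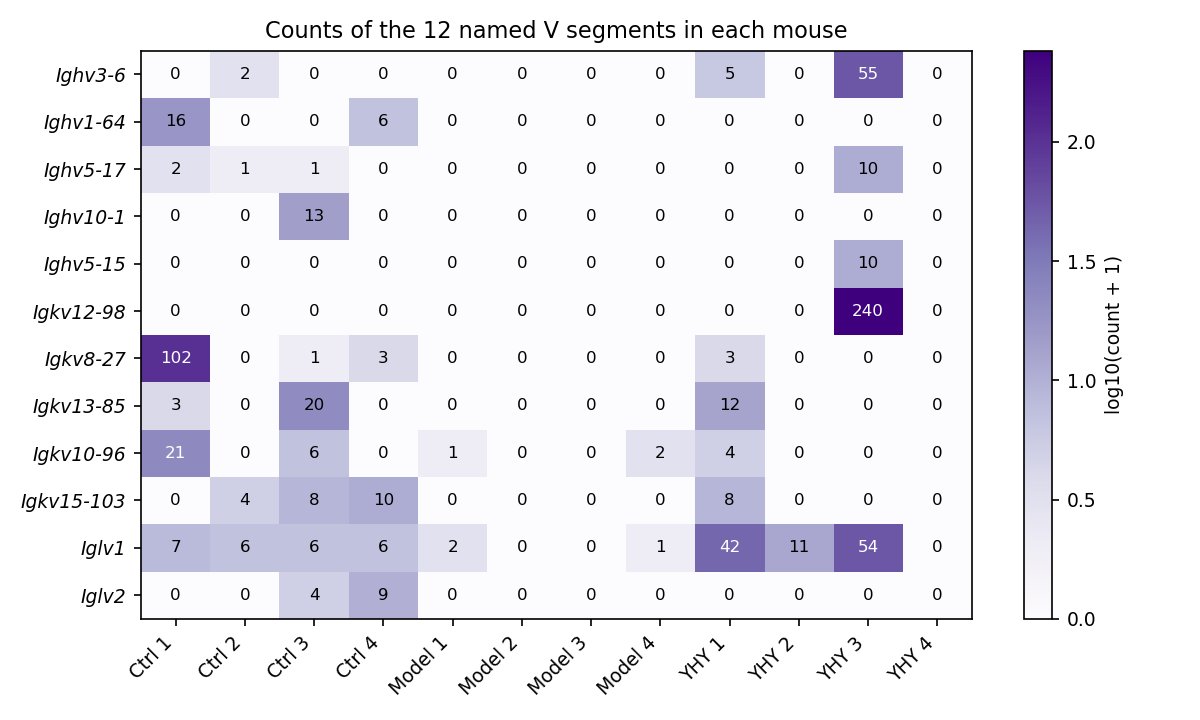
Counts of the 12 V segments with the largest summed counts per locus (5 heavy, 5 kappa, 2 lambda) in each mouse, printed in each cell and shaded on a log10 scale of count + 1. Igkv12-98 has 240 counts in YHY 3 and 0 elsewhere.

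Counts on V segments are the least certain of the values given here. Of the 32 V segments, 26 shared at least 1 window of 50 bases with another immunoglobulin gene, the median share was 25.2% of windows and the highest 72.9% in Igkv4-59, and 3 segments shared over 50%. Igkc, Igha, Ighm, Ighd and Iglc1 shared 0% of their windows, Ighg3 shared 3.4%, and Iglc2 and Iglc3 shared 14.3% with each other. Rearranged and mutated V regions also differ from the genome sequence to which reads are aligned, and what this did to the counts was not tested.

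Jchain encodes the J chain, which links IgA and IgM into polymers and is made by plasma cells. It stood at 7.99, 7.95, 7.19 and 1.59 CPM in Ctrl 1 to 4, 0.772, 0.571, 1.55 and 2.69 in Model 1 to 4, and 6.67, 2.21, 23.7 and 1.82 in YHY 1 to 4. Model 1 to 3 lay below every Ctrl mouse, Model 4 above Ctrl 4, and YHY 3, the mouse with the most Igha, was highest. Jchain was lower in Model than in Ctrl, with a log2 fold change of -2.15 (SE 0.74, edgeR adjusted p = 0.0318, exact p = 0.0571), and higher in YHY than in Model, with 2.63 (SE 0.75, edgeR adjusted p = 0.0308, exact p = 0.114). YHY against Ctrl gave 0.49 (SE 0.68, edgeR adjusted p = 0.581). The first call was lost without Ctrl 1, 2 or 3 (-2.05, -2.01 and -2.12, edgeR adjusted p = 0.0655, 0.0628 and 0.0582) and without Model 1, 2 or 3 (-1.99, -1.90 and -2.2, edgeR adjusted p = 0.0776, 0.0915 and 0.0645). That in YHY against Model was lost without YHY 3 (1.36, edgeR adjusted p = 0.164) and without Model 1, 2 or 3 (2.44, 2.38 and 2.69, edgeR adjusted p = 0.0923, 0.0804 and 0.0789), and without YHY 3 YHY against Ctrl was -0.79. With the 9 mice of the authors' means the call in Model against Ctrl was lost (-1.84, edgeR adjusted p = 0.0844).

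Across the 12 mice, Igkc and Jchain rose together. On log2(CPM + 0.1), Pearson's r was 0.879 (permutation p = 0.00017, adjusted p = 0.00119 over 7 relations) and Spearman's rho was 0.867 (permutation p = 0.00059, adjusted p = 0.00413). Without YHY 1 and YHY 3, the 2 mice farthest from the median of Igkc, r was 0.903 (n = 10). In the other 6 relations of Igkc, r was 0.409 with Cd79a (part of the B cell receptor), 0.302 with Ms4a1 (CD20 of B cells), 0.259 with Mzb1 (a chaperone of plasma cells), 0.117 with Cd3e (part of the T cell receptor complex), 0.192 with the haemoglobin gene Hbb-bs and -0.211 with Pigr (the receptor that carries polymeric IgA and IgM across epithelia). Spearman's rho in these 6 was 0.280, 0.384, 0.322, 0.149, 0.105 and -0.154 in the same order, and the permutation p adjusted over the 7 relations was at least 0.635 for each r and at least 0.659 for each rho. Without YHY 1 and YHY 3, r was 0.340, 0.623, -0.0393, 0.290, 0.0333 and 0.310 in that order. Mice of 3 groups are pooled in these values. On values centred on the mean of each group, a measure chosen after seeing the data, r of Igkc and Jchain was 0.852 (exact p = 0.00506 over 13824 arrangements within groups, adjusted p = 0.0355 over 7 relations). For the other 6 the adjusted exact p was at least 0.191. The labels give no batch.

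**Figure D5:**
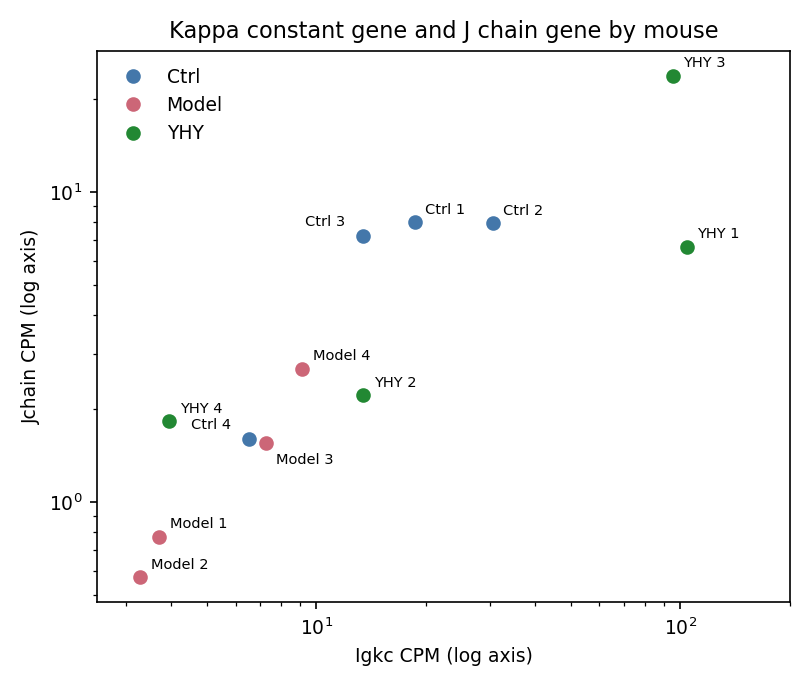
Igkc CPM (horizontal, log axis) against Jchain CPM (vertical, log axis), 1 labelled point for each of the 12 mice, coloured by group. The mice lie along a rising band (r = 0.879 on log2(CPM + 0.1)), with YHY 3 at its top and Model 1 and Model 2 at its foot.

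Marker genes of the cells that make antibody did not all move with the constant genes. Of 12 plasma cell genes, 10 were tested. In Model against Ctrl 0 were higher and 2 lower (Jchain and Xbp1), in YHY against Model 2 were higher (Jchain and Xbp1) and 1 lower (Txndc5), and in YHY against Ctrl 0 were higher and 3 lower (Xbp1, Eaf2 and Txndc5). Of all genes tested, 19.6% were higher and 18.5% lower in Model against Ctrl. The shares were 5.63% and 7.62% in YHY against Model, and 26.1% and 24.2% in YHY against Ctrl. An unadjusted p under 0.05 in edgeR gave 0 and 2, 3 and 2, and 1 and 3, and DESeq2 gave 0 and 2, 2 and 1, and 1 and 3. The median log2 fold change was -0.28, 0.33 and 0.00, against 0.04, 0.02 and 0.10 over all genes tested. Their summed level was 202, 178, 193 and 225 CPM in Ctrl 1 to 4, 128, 132, 136 and 141 in Model and 140, 109, 135 and 106 in YHY, so it was not highest in YHY 1 or YHY 3. Most of it was Txndc5, a protein-folding enzyme, and Xbp1, a transcription factor of secretory cells, which other cells also express. Xbp1 stood at 93.3, 60.9, 77.4 and 109 CPM in Ctrl, 29.9, 30.5, 24.1 and 28.5 in Model and 62.5, 33.4, 49.5 and 42.7 in YHY, with no overlap between Model and either group. Its log2 fold change was -1.59 in Model against Ctrl (edgeR adjusted p = 3.56e-05), a call that no left-out mouse changed, and 0.74 in YHY against Model (edgeR adjusted p = 0.0246). The latter was lost without Model 1, 3 or 4 or YHY 1 (0.78, 0.66, 0.74 and 0.57, edgeR adjusted p = 0.0504, 0.0892, 0.0550 and 0.0744). The more specific genes Mzb1, Derl3, Prdm1 and Irf4 stayed under 2 CPM in each mouse. Mzb1 stood at 0.552, 0, 0.318 and 0.273 CPM in Ctrl, 0.225, 0.0952, 0.593 and 1.24 in Model and 0.457, 1.77, 1.97 and 0.581 in YHY, highest in YHY 3. Pou2af1 was highest in YHY 1, with 0.762 CPM against at most 0.187 in any other mouse, and Tnfrsf17, the BCMA receptor of plasma cells, was read only in Model 1, with 3 counts. Other genes of the list went the other way. Irf4 stood at 0, 0, 0.297 and 0.310 CPM in YHY 1 to 4, below every Ctrl mouse (edgeR adjusted p = 0.201, exact p = 0.0286). Derl3 was lowest of the 12 mice in YHY 1, at 0.152 CPM, and highest in Ctrl 4, at 0.978. Prdm1 was highest in YHY 2, at 1.22 CPM.

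Of 20 B cell genes, 8 were tested. In Model against Ctrl 2 were higher (Ebf1 and Fcrl1) and 0 lower, in YHY against Model 0 and 0, and in YHY against Ctrl 2 were higher (again Ebf1 and Fcrl1) and 0 lower, Fcrl1 being lost in YHY against Ctrl without Ctrl 3 (1.89, edgeR adjusted p = 0.0547). Fcrl1 had 11, 9, 4 and 1 counts in Ctrl and 28, 18, 22 and 19 in Model. It passed the filter through the db/db mice, where it is high, so its calls are a description. In the same order, 19.6%, 5.63% and 26.1% of all genes tested were higher, and 18.5%, 7.62% and 24.2% lower. The median log2 fold change was -0.07, 0.24 and 0.41. In YHY against Model an unadjusted p under 0.05 in edgeR gave 1 higher (Ly6d) and 0 lower, and DESeq2 called 0 and 0. In YHY against Ctrl they gave 3 and 0, and 3 and 1. The summed level was 14.2, 10.4, 10.0 and 12.1 CPM in Ctrl, 13.6, 19.9, 19.9 and 16.3 in Model and 22.1, 20.7, 14.5 and 11.3 in YHY, and Ebf1, which cells outside the B lineage also express, was the most abundant gene. The defining genes Cd79a and Ms4a1 were under 1 CPM in every mouse. In YHY 3, with 270 CPM of immunoglobulin genes, Ms4a1 had 0 counts and Cd79a stood at 0.260 CPM. In YHY 1, with 272, they stood at 0.229 and 0.457 CPM. The part of cell numbers in the immunoglobulin levels was not tested.

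Of 8 genes of recombination and B cell development, 4 were tested, and Rag1 and Rag2, the recombinase subunits, had 0 counts in all 12 mice. Bcl6, a transcription factor of germinal centre B cells that other cells also express, was lower in Model than in Ctrl (log2 fold change -1.41, edgeR adjusted p = 0.0100), and 0 others were called in any comparison. An unadjusted p under 0.05 in edgeR and DESeq2's adjusted p each gave this 1 lower call of Bcl6 and 0 others. Of all genes tested, 19.6% were higher and 18.5% lower in Model against Ctrl. In YHY against Model the shares were 5.63% and 7.62%, and in YHY against Ctrl 26.1% and 24.2%. The summed level of the list was 8.97 to 44.9 CPM, lowest in Model 1 and highest in Ctrl 1, and Bcl6 was its most abundant gene. The median log2 fold change was 0.05 in Model against Ctrl, 0.14 in YHY against Model and 0.19 in YHY against Ctrl.

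Of 14 genes that attract B and plasma cells or keep them alive, 8 were tested. Set against Ctrl, Model had 1 higher (Cxcl13) and 1 lower (Ccl28), YHY against Model gave 0 and 0, and in YHY against Ctrl 2 were higher (Cxcl13 and Ccl21a) and 1 lower (Ccl28). In the same order, 19.6%, 5.63% and 26.1% of all genes tested were higher, and 18.5%, 7.62% and 24.2% lower. Cxcl13, the chemokine that draws B cells into follicles, stood at 0.192, 0.374, 0.465 and 0.25 CPM in Ctrl, 3.06, 1.14, 0.776 and 1.67 in Model and 4.00, 0.994, 5.47 and 1.08 in YHY. Every db/db mouse was above every Ctrl mouse. Cxcl13 passed the filter with the help of the db/db mice, its Ctrl counts being 8, 12, 19 and 11, so its calls are a description. YHY 1 and YHY 3, the mice with the most immunoglobulin RNA, had the highest values, but Model 1, the next at 3.06 CPM, had the lowest immunoglobulin sum of the 12 mice (10.6 CPM). A relation of Cxcl13 to the immunoglobulin level was not tested. The log2 fold change of Cxcl13 was 2.38 in Model against Ctrl (SE 0.62, edgeR adjusted p = 0.00631, exact p = 0.0286) and 3.17 in YHY against Ctrl (SE 0.62, edgeR adjusted p = 0.000529, exact p = 0.0286), and in YHY against Model it was 0.79 (SE 0.56, edgeR adjusted p = 0.379). Ccl28, a chemokine for IgA plasma cells, stood at 11, 19.0, 0.734 and 15.2 CPM in Ctrl, 1.58, 0.952, 2.10 and 1.54 in Model and 0.724, 2.54, 2.01 and 1.43 in YHY. Ctrl 3 was far below the other Ctrl mice, and its Igha level was close to that of Ctrl 1. The log2 fold change of Ccl28 was -2.89 in Model against Ctrl (edgeR adjusted p = 0.00243, exact p = 0.143) and -2.79 in YHY against Ctrl (edgeR adjusted p = 0.00194, exact p = 0.114). Ccl21a, a chemokine of lymphatic vessels, was lost in YHY against Ctrl (0.84, edgeR adjusted p = 0.0346) without Ctrl 2, 3 or 4, Model 1 or YHY 2, with log2 fold changes from 0.55 to 0.86. The median of the list was 0.21, 0.10 and 0.09, its summed level 104 to 217 CPM with Cxcl12 the most abundant, and Il21 had 0 counts in all mice. In YHY against Model an unadjusted p under 0.05 in edgeR and DESeq2's adjusted p each gave 0 and 0, and in YHY against Ctrl each gave 3 and 1.

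Of 11 genes for receptors and transport of antibodies, 10 were tested. Set against Ctrl, Model had 0 higher and 4 lower (Pigr, Fcgrt, B2m and Fcamr), in YHY against Model 0 were higher and 1 lower (Fcgr2b), and in YHY against Ctrl 0 were higher and 5 lower (the same 4 genes and Fcgr2b). In the same order, 19.6%, 5.63% and 26.1% of all genes tested were higher, and 18.5%, 7.62% and 24.2% lower. Pigr stood at 194, 178, 335 and 231 CPM in Ctrl, 118, 181, 144 and 137 in Model and 125, 155, 125 and 167 in YHY, with a log2 fold change of -0.69 in Model against Ctrl (edgeR adjusted p = 0.0143). Fcgrt and B2m, which together form the neonatal Fc receptor that rescues IgG from breakdown, had log2 fold changes of -0.92 (edgeR adjusted p = 0.000810) and -0.78 (0.0152) in Model against Ctrl, and B2m was lost without Model 4 (-0.62, edgeR adjusted p = 0.0528). Fcamr, a receptor for IgA and IgM, had -0.89 (edgeR adjusted p = 0.0225) and was lost without Ctrl 3 or Model 4 (-0.81 and -0.77, 0.0551 and 0.0716). Fcgr2b, the inhibitory receptor for IgG, stood at 35.0, 39.8, 39.0 and 29.5 CPM in Ctrl, 36.4, 29.6, 32.1 and 20.2 in Model and 10.0, 21.3, 14.9 and 21.2 in YHY. It was lowest in YHY 1, and its log2 fold change in YHY against Model was -0.81 (SE 0.23, edgeR adjusted p = 0.0278, exact p = 0.0857). That call was lost without Model 1, 2 or 3 (-0.70, -0.81 and -0.77, edgeR adjusted p = 0.0701, 0.0540 and 0.0790) and without YHY 1 or YHY 3 (-0.63 and -0.76, 0.0594 and 0.0639). In YHY against Ctrl, B2m (-0.68, edgeR adjusted p = 0.0236) was lost without Ctrl 1, YHY 2 or YHY 4 (-0.64, -0.56 and -0.61, 0.0626, 0.0720 and 0.0557). The median of the list was -0.70, -0.01 and -0.55, and its summed level was 330 to 796 CPM, lowest in Model 4 and highest in Ctrl 3, with B2m the most abundant gene.

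Genes of other cells were read beside these values. Of all genes tested by edgeR, 19.6% were higher and 18.5% lower in Model against Ctrl. The shares were 5.63% and 7.62% in YHY against Model, and 26.1% and 24.2% in YHY against Ctrl. Of 12 T cell genes 9 were tested by edgeR, and 0 were called when Model was set against Ctrl or YHY against Model, and 1 was higher (Il7r) in YHY than in Ctrl. Il7r had 24, 13, 4 and 4 counts in Ctrl and passed the filter with the help of the db/db mice, so its call is a description. An unadjusted p under 0.05 gave 1 higher and 2 lower in Model against Ctrl and 1 higher in YHY against Model, and DESeq2 called 1 lower in the former and 0 in the latter. In YHY against Ctrl each gave 1 higher and 1 lower. Their summed level was 12.1, 4.12, 6.63 and 4.30 CPM in Ctrl, 6.05, 4.14, 3.42 and 6.54 in Model and 6.79, 7.90, 9.89 and 3.52 in YHY, led by Trac. Of 5 NK cell, 4 neutrophil and 6 adipocyte genes, 1, 2 and 2 were tested and 0 were called by edgeR in any comparison. An unadjusted p under 0.05 in edgeR also gave 0, and DESeq2 called 1, Nkg7, lower in Model than in Ctrl. Their summed levels ran from 0 to 1.85, from 1.56 to 15.2 and from 41.8 to 89.1 CPM, led by Nkg7, S100a8 and Fabp4. Of 10 macrophage and dendritic cell genes 8 were tested, with 1 higher (Cd68) and 3 lower (C1qa, C1qb and C1qc) in Model against Ctrl. Set against Model, YHY had 0 called by edgeR, with 1 higher (Cd68) at an unadjusted p under 0.05 and 0 by DESeq2. Against Ctrl, YHY had 2 higher (Cd68 and Lyz2) and 2 lower (C1qa and C1qc), C1qa (-0.65) being lost without Ctrl 3 or YHY 2 (-0.56 and -0.50, edgeR adjusted p = 0.0722 and 0.0646), while DESeq2 called 2 higher and 3 lower. They had a summed level of 150 to 475 CPM, highest in YHY 2, and Lyz2 the most abundant. In kidney tubule and podocyte genes, 2 of 8 were higher (Slc12a3 and Nphs1) and 3 lower (Lrp2, Umod and Aqp2) in Model against Ctrl, and the same 5 genes were called in the same directions in YHY against Ctrl. DESeq2 called 2 higher and 2 lower in the former. In YHY against Model 0 were called by edgeR, with 1 higher and 1 lower at an unadjusted p under 0.05, and DESeq2 called Umod higher. Aqp2 in Model against Ctrl was lost without Ctrl 1 or 4 or Model 2, 3 or 4, with log2 fold changes from -0.82 to -1.19 against -1.18, and in YHY against Ctrl it was -1.42 and -2.02 without YHY 1. The median log2 fold changes, for the 3 comparisons in the order Model against Ctrl, YHY against Model, YHY against Ctrl, were -1.38, 0.57 and -0.26 for T cell genes, -0.19, 0.47 and -0.40 for macrophage and dendritic cell genes, and 0.01, -0.22 and -0.50 for kidney genes. In the same order they were -2.22, 0.95 and -1.27 for the NK cell gene tested, -0.13, -0.04 and -0.17 for neutrophil genes and 0.59, -0.09 and 0.50 for adipocyte genes.

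All 5 red blood cell genes were tested. Of these, 1 was higher in Model than in Ctrl (Hba-a2) and 3 lower (Hbb-bs, Hbb-bt and Alas2), and in YHY against Model 2 were higher (Hbb-bs and Alas2) and 0 lower. Of all genes tested, 19.6% were higher and 18.5% lower in Model against Ctrl. The shares were 5.63% and 7.62% in YHY against Model, and 26.1% and 24.2% in YHY against Ctrl. At an unadjusted p under 0.05 in edgeR 4 were higher in YHY than in Model and 0 lower, and DESeq2 called 3 higher and 0 lower. Against Ctrl, YHY had 2 higher (Hba-a1 and Hba-a2) and 0 lower, Hba-a1 (0.99) being lost without Ctrl 1, 2 or 3 or YHY 4 (0.68 to 0.92). Their summed level was 458, 306, 372 and 686 CPM in Ctrl, 476, 430, 293 and 271 in Model and 491, 324, 791 and 1061 in YHY, led by Hba-a1, and the median log2 fold change was -1.17, 1.11 and -0.07. YHY 4, the highest, had the lowest immunoglobulin level of its group and YHY 3, the next, had a high one. Hbb-bs in YHY against Model (1.29, edgeR adjusted p = 0.0280) was lost without any single Model mouse, YHY 3 or YHY 4, with log2 fold changes from 0.93 to 1.32, and Alas2 (1.71, edgeR adjusted p = 0.0274) without any single Model mouse or YHY 3, with 1.46 to 1.81. Hba-a2 in Model against Ctrl (0.70, edgeR adjusted p = 0.0452) was lost without Ctrl 1, 2 or 3 or any single Model mouse (0.55 to 0.76), and Hbb-bt (-1.17, edgeR adjusted p = 0.0227) without Ctrl 4 or Model 2, 3 or 4 (-0.94 to -1.18). Alas2 in Model against Ctrl went from -1.87 to -1.27 without Ctrl 4. What blood in the tissue adds to the immunoglobulin counts was not tested.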

How the data were processed

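Raw gene counts, the count values the authors deposited for each of the 12 mice, were the base of every level and test. Group means, the signal values the authors deposited, served only to find which mice they average. The submitters name FastQC 0.11.9, Trimmomatic 0.39, HISAT2 2.2.1, SAMtools 1.12, featureCounts 2.0.1, DESeq2 1.34.0, R 4.1.2 and GRCm39. How multimapped reads and strand were counted is not stated in the sources used here. The 12 other per-sample columns, the authors' fold changes and p-values, and their pathway tables were not used here. All 12 mice entered a single edgeR 4.0.16 fit of 3 groups (R 4.3.3, TMM, filterByExpr, quasi-likelihood test, two-sided, Benjamini-Hochberg over 17431 genes). Fold changes are unshrunk apart from a prior count of 0.125, and SE is the fold change over the root of F. Single genes also had a two-sided exact permutation test on CPM, and correlations 100000 permutations (Python 3.11.15, scipy 1.17.1). V segment numbers at a depth of 20 counts were computed analytically. Alternatives were DESeq2 1.42.0, other scalings and filters, fewer mice, a replicate block, other pseudocounts and call limits, and each mouse left out. Constant genes, the 5 V segments with the most counts per locus, the leading V segment of each mouse and locus, the genes of 12 lists (115 genes) and Lepr were named by rule. The members and lists were chosen with earlier results of these data known. The code was tested on simulated data.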

Additional observations from a re-analysis of the deposited data

Results flagged for a closer look

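In each group of 4 mice, the gap between the highest or lowest mouse and its nearest neighbour was divided by the range of the group, for the constant genes, Jchain, the named V segments, the summed levels of all 43 genes, of heavy and of lambda constant genes, and the kappa percent. An immunoglobulin gene was checked in a group only where a mouse had at least 10 counts. Of 56 group values checked, 16 had a mouse standing far apart, where chance gives about 1 in 20, and genes of the same mouse are not independent of each other. The V segments gave 8 of these, out of 12 values checked, but they were chosen by their counts, so the comparison with chance does not hold for them. Without V segments it was 8 of 44, and here too some values met the limit of 10 counts only through the mouse that stands apart, such as Ighg3 in Model and Iglc2 in Ctrl, so this count cannot be set against chance either.

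YHY 1 stood apart in 3 IgG genes. Ighg1 was 58.7 CPM against 5.08 in the nearest YHY mouse (gap over range 0.924), Ighg2b was 51.5 against 5.58 (0.903) and Ighg2c was 21.6 against 2.15 (0.91). It was also the only YHY mouse with Igkv13-85, at 0.457 CPM against 0 (1). YHY 3 stood apart in Igha, with 138 CPM against 17.7 (0.89), and in Iglc1, with 8.29 against 1.18 (0.857). Among V segments YHY 3 stood apart in Igkv12-98, with 8.92 CPM against 0 (1), and in Ighv3-6, with 2.05 against 0.191 (0.907). Ighv5-17 and Ighv5-15 were each at 0.372 CPM in YHY 3 against 0 in the other YHY mice (1 for each).

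In Ctrl, Igkv8-27 was 2.45 CPM in Ctrl 1 against 0.0682 (0.972). Ctrl 3 was highest in Iglc2, with 0.905 CPM against 0.249 (0.835), in Ighv10-1, with 0.318 against 0 (1), and in Igkv13-85, with 0.489 against 0.0720 (0.853). Ctrl 4 was lowest in Jchain, with 1.59 CPM against 7.19 (0.876). In Model, Ighg3 was 0.598 CPM in Model 4 and 0 in the other mice (1). What set these mice apart was not tested.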

How the results depend on the processing

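No log2 fold change past the threshold for Igkc, Igha, Ighg1, Ighg2b, Ighg2c or Jchain changed sign under any alternative run. Over all alternatives and genes named with a test, 1523 log2 fold changes kept their direction and side of the threshold, 25 passed it only in the alternative, 114 passed it no longer and 5 changed sign. The alternatives for Iglc1, Ighd and the listed genes were chosen after seeing the data.

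In Model against Ctrl the count of genes lower, 0 with edgeR, was 3 of 8 with library size alone, where 32.5% of all genes were lower, 4 of 43 with no filter (10.9% of all genes), 2 of 7 with only the 8 mice compared (24.2%), 2 of 8 at the limits of the study (22.4%), and 0 to 2 of 8 to 10 with single mice left out (14.4 to 20.9%). In YHY against Model the count higher, 5, was 9 of 43 with no filter (3.55% of all genes) and 2 of 8 with the replicate block (Ighg1 and Ighg2b, 4.55%), and 4 to 7 of 8 to 10 with single mice left out (2.32 to 5.88%). Without Model 1, 2 or 3 both Igha and Ighg2c were lost and Iglv1 was added. Iglv1 entered these fits through YHY 1 to 3, where it is high, so its call is a description. In YHY against Ctrl the count higher, 3, was 10 of 43 with no filter (14.7% of all genes), 6 of 10 with the 9 mice of the authors' means (23.2%), 1 of 8 with the replicate block (Ighg1, 24.4%), and 1 to 7 of 8 to 10 with single mice left out (20.9 to 25.3%), and the count lower, 0, was 1 of 43 with no filter (Igkv8-27, 14.2%). The replicate block treats equal numbers as paired mice. The same-number pairs of mice correlated at r of -0.173 or more, 2 of 12 pairs were above 0.1, and 1 of 12 mice was closest to its own number in both other groups, so the numbers give no hint of pairing. Igkc in YHY against Model was 2.64 with the block (edgeR adjusted p = 0.0758, against 0.00158 to 0.0482 with single mice left out). With the block the calls of Jchain were lost in Model against Ctrl (-2.06, edgeR adjusted p = 0.0537) and in YHY against Model (2.04, edgeR adjusted p = 0.111).

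With mitochondrial genes left out, the mean summed level was 81.7 CPM in Ctrl against 44.6 and 30.1 in Model against 16.6, and it was 275 in YHY against 149. In YHY against Ctrl, Jchain was -0.0239 with the replicate block, and with single mice left out the values were -0.79 to 0.82 for Jchain, -0.37 to 0.0488 for Ighm, -0.76 to 1.96 for Igha and -0.0376 to 2.57 for Iglc1. Pearson's r of Igkc and Pigr was 0.085 with library size alone, and on values centred on group means r was -0.326 with Cd3e and -0.306 with Hbb-bs. Apart from effects of the numbers of genes or mice, the cause was not tested. Ighg3 was not tested in edgeR, so it has no alternatives, and Ighg1 in Model against Ctrl could not be given with only the 8 mice, where it failed the filter.

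What made low counts more often even than odd was not tested.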
